A study of Mus musculus with 6 samples.

Results

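The genes described here encode the machinery that carries proteins into mitochondria, taken from the transcriptome of the right cerebral cortex of mice. They were chosen by name alone, as every gene listed under a symbol that begins with Tomm, Timm or Chchd and a digit, together with Samm50, Immt, Pmpca, Pmpcb, Grpel1, Grpel2, Pam16 and Romo1. They number 39 of the 13582 genes that the authors' table lists, and all 39 passed the filter on low values. Of these, 38 are protein-coding and Tomm6os is a noncoding gene on the strand opposite to Tomm6. The mice were C57BL/6 animals aged 10 weeks at sacrifice, and each had received 1 intraperitoneal injection 2 weeks earlier. The vehicle group (3 mice) received vehicle and the resveratrol group (3 mice) received resveratrol, a plant polyphenol, at 10 mg/kg. The label of the vehicle mice carries the same dose, and what the vehicle contained is not given in the sources used here. No ischemia is named for any of the 6 samples, and the study asks what the cortex expresses in the late window of tolerance that resveratrol preconditioning is reported to open.

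Nearly all mitochondrial proteins are made in the cytosol and must cross the mitochondrial membranes unfolded. The translocase of the outer membrane (TOM) admits them, and the small TIM chaperones escort some membrane proteins among them across the intermembrane space. The translocases TIM22 and TIM23 insert proteins into the inner membrane or pass them to the matrix. There a motor pulls them in and a peptidase removes their targeting sequence. The SAM complex builds barrel proteins into the outer membrane, MICOS shapes the inner membrane folds, and proteins with twin CX9C motifs are trapped in the intermembrane space by oxidative folding. Neurons depend on this supply because they make most of their ATP in mitochondria.

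Transcripts of the machinery mostly lay above the level of the median gene, and no difference between treatments passed a test against the spread between mice. Levels are given in FPKM, fragments scaled to transcript length and to the mapped fragments of the library. The first scaling is meant to allow comparison between genes. Values still moved with transcript length and GC content between libraries, as given further on, so such comparisons are approximate. The median member had 30.3 FPKM over the 6 libraries against 10.2 for all genes tested, and 32 of 39 members lay above that median. Together they made up 0.403% ± 0.0325 of the listed FPKM in vehicle and 0.402% ± 0.00399 in resveratrol (SD over 3 mice). A two-sided exact permutation test gave p = 1 for this share, and no p under 0.1 can come from 3 against 3 mice. Library by library, vehicle 1, 2 and 3 stood at 0.403%, 0.370% and 0.435%, and resveratrol 1, 2 and 3 at 0.401%, 0.399% and 0.407%, so the resveratrol libraries lay inside the range of the vehicle libraries. All listed FPKM summed to 362804, 351731 and 393451 in vehicle 1, 2 and 3. The sums were 393687, 380486 and 397876 in resveratrol 1, 2 and 3. They include the genes Rmrp and Rpph1, with means of 9825 and 10879 FPKM in vehicle and 14352 and 15412 FPKM in resveratrol. The part of these genes in the share was not tested. Summed FPKM of the members was 1493 ± 207 in vehicle and 1572 ± 50.6 in resveratrol (SD over 3 mice). Of the 39 members 0 passed limma's test at an adjusted p of 0.05, where 0.00737% of all 13574 genes tested did, and the smallest limma adjusted p of a member was 0.987. Without adjustment 2 members, Chchd6 and Tomm5, had a p under 0.05, where 2.42% of all genes had one. By the authors' deposited table, 0 members had a q-value under 0.05 (0.744% of all genes), the smallest q of a member was 0.705, and 1 member, Chchd6, had a p-value under 0.05 (5.98% of all genes).

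Most members had a slightly higher mean in resveratrol, and most of these differences were smaller than their error. The log2 fold change of resveratrol over vehicle, on log2(FPKM + 0.5), was above 0 for 32 members and below 0 for 7, and above 0 for 56.1% of all genes. Its median was 0.08 over the members and 0.02 over all genes tested, and it ran from -0.10 in Tomm70a to 0.34 in Tomm6. For 30 of the 39 members it was smaller in size than its own SE, whose median was 0.13. Groups did not overlap in 3 members, Chchd6, Tomm5 and Tomm6os, all higher in resveratrol, which is 7.69% of the members against 6.28% of all genes. In bulk tissue, fewer cells of a type and less RNA per cell cannot be told apart.

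**Figure D1:**
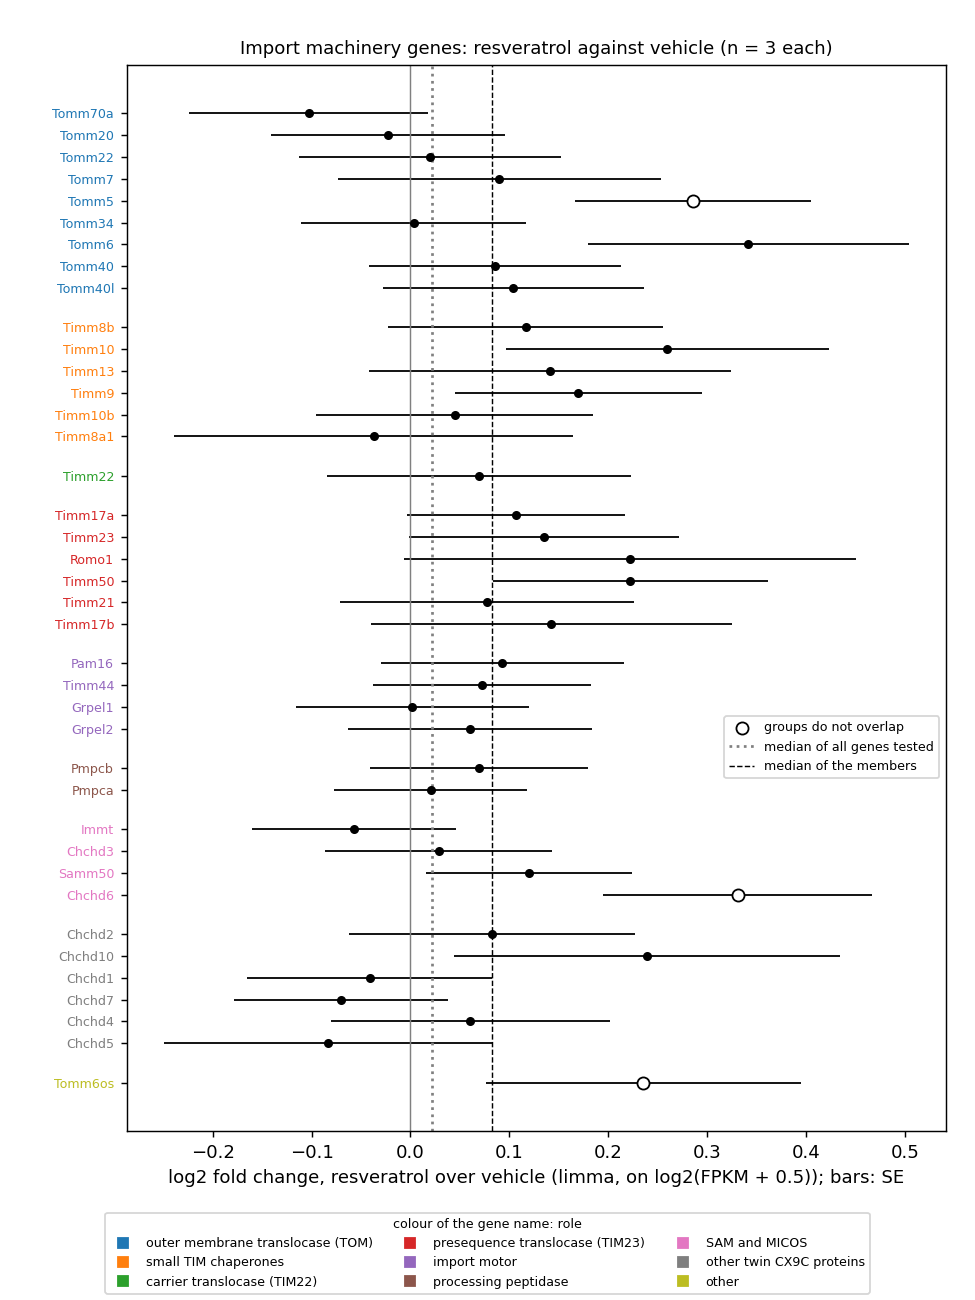
Log2 fold change of resveratrol over vehicle for each of the 39 genes (x axis; points are limma estimates, bars are SE, n = 3 mice per group), grouped by role on the y axis, with open circles where the groups do not overlap. Most estimates lie between 0 and 0.2 with bars that reach 0, and the median of the members (0.08) lies to the right of the median of all genes tested (0.02).

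The spread among the vehicle mice was larger than the difference between treatments. Relative to each gene's mean of the 6 libraries, on the log2 scale, the members averaged -0.08 in vehicle 1, -0.22 in vehicle 2 and 0.16 in vehicle 3, against 0.04, 0.0043 and 0.10 in resveratrol 1, 2 and 3. Vehicle 2 lay below the gene's mean in all 39 members and was the lowest of the 6 libraries in 26 of them, while it was the lowest for 24.0% of all genes. At the other end, vehicle 3 was the highest library in 19 members, against 15.5% of all genes, and resveratrol 3 in 13, against 21.02%. Vehicle 3 exceeded vehicle 2 in 38 of 39 members, by a median of 0.41, where the median over all genes was 0.01. In 37 members this gap between mice of 1 group was larger in size than the fold change between groups. These mice were the extremes for these same genes, and the fold change is between means of 3. A high count was therefore to be expected, and the same count over all genes was not made. The SD of log2 values within vehicle was larger than that within resveratrol in 33 of 39 members and in 61.4% of all genes, with medians of 0.22 and 0.12 over the members.

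**Figure D2:**
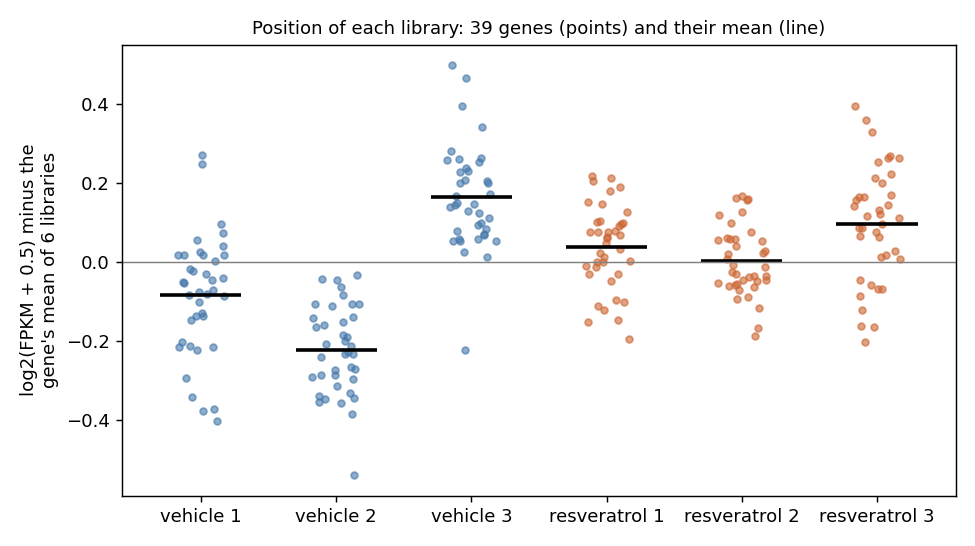
Position of the 39 genes in each library, as log2(FPKM + 0.5) minus the gene's mean of the 6 libraries (y axis); points are genes and the line is their mean. Vehicle 2 lies lowest (mean -0.22) and vehicle 3 highest (0.16), with the 3 resveratrol libraries between them.

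The shift between treatments changed with which vehicle mice were included. Without vehicle 2 the median log2 fold change of the members was 0.0050, with 20 of 39 above 0. Without vehicle 3 it was 0.18, with 36 above 0. Among these 5 libraries 19 members had groups that did not overlap, against 37.2% of all genes, and 0 members passed limma's adjusted threshold (0.0516% of all genes did). With vehicle 1 and 2 both left out the median was -0.11 and 5 of 39 members were above 0. Genes of the mitochondrial ribosome (77 genes, Mrpl and Mrps) and nuclear subunits of complex I (37 genes, Nduf) had medians of 0.07 and 0.15. These medians were 0.0020 and 0.03 without vehicle 2, and 0.168 and 0.305 without vehicle 3. With vehicle 1 and 2 left out they were -0.12 and -0.14. No test of a difference between these lists was run. With libraries weighted by their spread (limma's default sample weights) 15 members passed the adjusted threshold, where 36.3% of all genes did, but the estimate of these weights stopped before it converged. Weights estimated gene by gene, added after that was seen, gave 5 members (Chchd6, Tomm6, Tomm5, Chchd10 and Timm13), where 10.2% of all genes passed. In the second set vehicle 1 and resveratrol 2 had weights of 4.02 and 3.55 and the other libraries between 0.267 and 0.786, so these calls rest mostly on 1 mouse per group.

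Transcript length moved with these differences between libraries, and its part in them was not tested. Across all genes with a length, the Spearman correlation of a library's deviations with transcript length for vehicle 1, 2 and 3 came to 0.318, 0.503 and -0.526, and for resveratrol 1, 2 and 3 to -0.00794, -0.146 and -0.327. Among the members the gap between vehicle 3 and vehicle 2 had a median of 0.49 in the 20 shorter genes (transcripts of 518 to 1615 bases) and of 0.28 in the 19 longer ones (1646 to 7280 bases). The log2 fold change between treatments had medians of 0.10 and 0.07 in the same sets. The Spearman correlation across the 39 members, which share their libraries, was -0.451 between transcript length and the gap and -0.323 between transcript length and the fold change. With length and GC content corrected in every library the median fold change of the members was 0.03, with 27 of 39 above 0. GC content had correlations of -0.362, 0.0355 and -0.0144 in vehicle 1, 2 and 3, and of -0.465, 0.240 and 0.586 in resveratrol 1, 2 and 3.

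**Figure D3:**
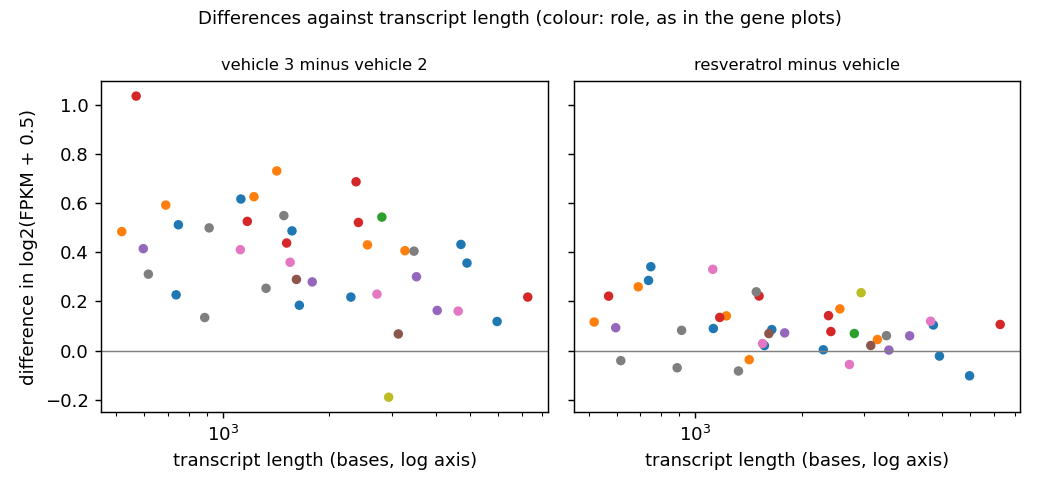
Difference in log2(FPKM + 0.5) between vehicle 3 and vehicle 2 (left) and between the treatment means (right) against transcript length in bases (log axis) for the 39 genes. The gap within vehicle is above 0 for 38 genes and is larger for short transcripts, with a median of 0.49 against 0.28 for long ones.

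The promoters of the members were searched for the letters of 3 motifs of factors known to act on nuclear genes of mitochondria. RefSeq (GRCm38.p6) windows of 250 bases before to 50 bases after the start were at hand for 33 of the 39 members. For NRF1 only 1 exact palindromic form of the core motif was searched, and forms that differ from it at any base were not counted. This form occurred in 0 of the 33 windows, against 2.27% of the windows of 10257 genes in the table. With so low a share among all genes, 0 of 33 cannot show that these promoters lack NRF1 sites. The letters CCGGAAGT, an ETS motif searched for GABPA, occurred on either strand in 7 members (Chchd5, Pmpcb, Romo1, Timm10, Timm10b, Timm23 and Tomm70a). This is 21.2% against 8.42%. Of these 7, 5 had a higher log2 mean in resveratrol, as had 32 of all 39 members and 56.1% of all genes. The YY1 motif occurred in 1 (Timm50, 3.03% against 1.75%), and 0 members held more than 1 of the 3 motifs. Members with CCGGAAGT had a median gap of 0.41 between vehicle 3 and vehicle 2 and a median fold change of 0.07. The 26 members without it had 0.38 and 0.09 on the log2 scale. No match says only that the exact letters searched are not in this window, and a match is a description of the sequence.

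The 250 bases before the RefSeq start are shown, 5′ to 3′ on the gene's strand. The genes are a pair that hold the letters CCGGAAGT in that stretch, in capitals, and Chchd6, which holds none of the 3 motifs. They were picked after the search, since the promoters of the genes first picked by their values, Chchd6, Chchd3, Tomm5 and Timm8b, held none of the letters. Romo1 (chr2:156143983-156144232, plus strand) is the member with the widest gap between vehicle mice, Tomm70a (chr16:57121464-57121713, plus strand) the one with the lowest fold change, and Chchd6 (chr6:89595653-89595902, minus strand) the one with the smallest p. In GENCODE M21 Romo1 starts at 156144039 and Tomm70a at 57121703, inside the stretches shown. The capitals of Romo1 lie past its GENCODE start, and those of Tomm70a lie before its own.
Romo1: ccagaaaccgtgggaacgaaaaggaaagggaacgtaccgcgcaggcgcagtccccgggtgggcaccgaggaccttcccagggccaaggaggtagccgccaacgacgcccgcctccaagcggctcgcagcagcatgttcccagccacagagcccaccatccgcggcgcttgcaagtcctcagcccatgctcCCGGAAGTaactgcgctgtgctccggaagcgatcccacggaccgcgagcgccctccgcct
Tomm70a: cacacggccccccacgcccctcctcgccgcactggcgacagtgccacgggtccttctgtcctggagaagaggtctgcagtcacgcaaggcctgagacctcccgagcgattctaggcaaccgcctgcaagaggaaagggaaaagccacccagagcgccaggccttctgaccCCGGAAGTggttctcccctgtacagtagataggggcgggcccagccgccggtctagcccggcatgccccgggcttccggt
Chchd6: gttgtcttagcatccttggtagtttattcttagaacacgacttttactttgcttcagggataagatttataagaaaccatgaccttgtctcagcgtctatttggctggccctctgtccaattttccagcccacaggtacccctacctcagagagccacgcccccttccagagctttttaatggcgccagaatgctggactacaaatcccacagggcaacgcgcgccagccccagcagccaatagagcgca

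Marker lists were used to check the tissue. Excitatory cortical neuron markers summed to between 297 and 376 FPKM in all libraries, with all 7 measured, and inhibitory neuron markers to between 451 and 539. Striatal markers summed to between 168 and 433 FPKM in vehicle and 146 and 311 in resveratrol (all 6 measured, 0 with a higher mean in resveratrol), and choroid plexus markers to between 15.5 and 112 in vehicle and 46.7 and 453 in resveratrol (5 of 6 measured, all 5 with a higher mean). Ependymal markers summed to between 12.2 and 13.3 FPKM in vehicle and 8.12 and 9.34 in resveratrol (all 5 measured, 0 with a higher mean). Oligodendrocyte markers summed to 1362, 1285 and 1314 FPKM in vehicle 1, 2 and 3 and to 1223, 1275 and 1075 FPKM in resveratrol 1, 2 and 3, so these sums were lower in resveratrol without overlap, and 1 of 5 genes had a higher mean there. Astrocyte markers (1 of 5 with a higher mean) summed to between 281 and 322 FPKM in vehicle and 283 and 298 in resveratrol. Microglial markers (2 of 5 higher) lay between 94.3 and 105 and between 95.3 and 110 FPKM, and endothelial markers (2 of 4 higher) between 20.8 and 32.9 and between 25.6 and 29.2 FPKM. Vehicle 2 and vehicle 3, the extremes for the import genes, had 244 and 168 FPKM of striatal and 50.8 and 112 FPKM of choroid plexus markers. The part of these differences in the values of the import genes was not tested.

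The receptors of the TOM complex were its most abundant transcripts. Tomm70a, the receptor that binds chaperoned carrier precursors, had 125, 97.4 and 106 FPKM in vehicle 1, 2 and 3 and 105, 106 and 93.6 FPKM in resveratrol 1, 2 and 3. Its groups overlapped, and its log2 fold change of -0.10 ± 0.12 (SE) was the lowest of the 39 (limma adjusted p = 0.987). Tomm20 and Tomm22, receptors for proteins with a cleavable presequence, had means of 92.9 and 70.2 FPKM. The channel itself, Tomm40, lay lower, with 18.1, 20.5 and 23.4 FPKM in vehicle and 19.5, 22.4 and 23.9 FPKM in resveratrol, and the related Tomm40l had 14.1, 13.2 and 17.96 FPKM and 16.7, 15.02 and 16.6 FPKM. Both overlapped between groups, at 0.09 ± 0.13 and 0.10 ± 0.13 (SE). Tomm34, a cytosolic cochaperone of import, had a mean of 36.0 FPKM.

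The small TOM subunits, which stabilise the channel, include Tomm5 and Tomm6, whose means were higher in resveratrol. Tomm5 had 29.7, 33.7 and 39.6 FPKM in vehicle and 40.4, 42.3 and 42.3 FPKM in resveratrol. All 3 resveratrol values lay above the vehicle values, by a margin of under 1 FPKM at the nearest pair. The log2 fold change of Tomm5 was 0.29 ± 0.12 (SE, limma adjusted p = 0.987). It was 0.39 without vehicle 3 and 0.07 with vehicle 1 and 2 left out. Tomm6, named after its value was seen because its fold change was the highest of the 39, had 25.0, 26.6 and 38.2 FPKM in vehicle and 33.8, 37.1 and 41.9 FPKM in resveratrol. Vehicle 3 lay among the resveratrol values, and the log2 fold change was 0.34 ± 0.16 (SE, limma adjusted p = 0.987). It was 0.53 without vehicle 3 and -0.03 with vehicle 1 and 2 left out. Tomm7, the remaining small subunit, had a mean of 38.0 FPKM and overlapping groups.

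Tomm6 and Tomm6os share a locus and are reported as uncertain. In GENCODE M21 (GRCm38) Tomm6 lies on chromosome 17 from 47686646 to 47688386 on the minus strand, and exons of Tomm6os, from 47687610 to 47691083 on the plus strand, overlap its exons. Of the 50-base words of Tomm6 transcripts 69.1% also occur in the gene Gm21981, which overlaps it on the same strand. The library kit marks strand, but whether strand was used in the estimates is not given in the sources used here. Tomm6os had 1.03, 1.10 and 0.904 FPKM in vehicle and 1.10, 1.28 and 1.46 FPKM in resveratrol. The groups did not overlap, with the nearest values of the groups equal at 1.10 after rounding, and the log2 fold change was 0.24 ± 0.16 (SE, limma adjusted p = 0.987). It was also the member with the lowest level and the only one in which vehicle 3 lay below vehicle 2.

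**Figure D4:**
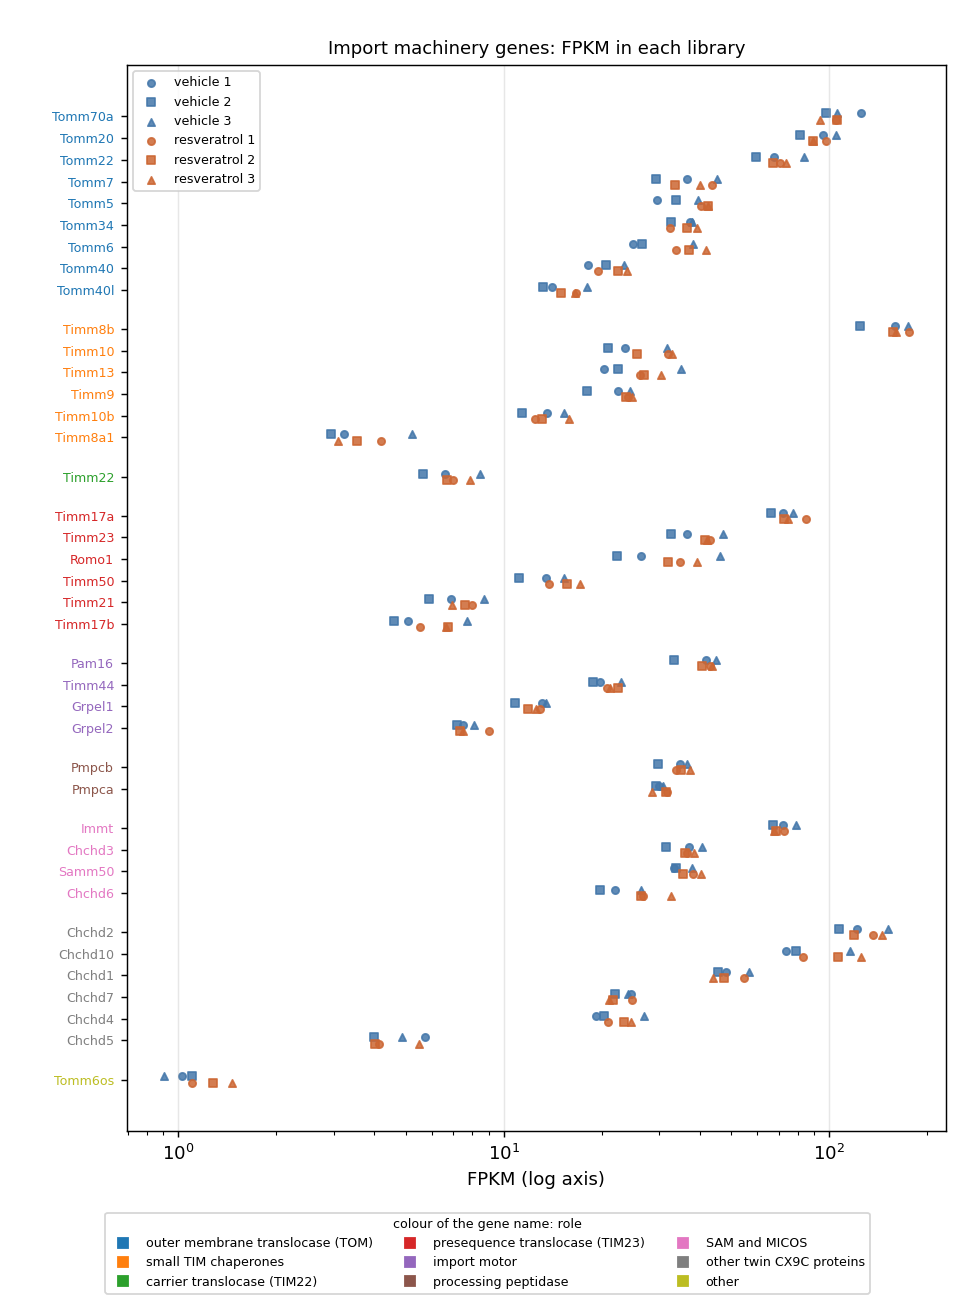
FPKM of the 39 genes in each of the 6 libraries (x axis, log scale), ordered by role and, within a role, by mean level; blue marks are vehicle and orange marks resveratrol. Levels run from 1.15 FPKM (Tomm6os) to 158 FPKM (Timm8b), and marks of both colours overlap in 36 genes.

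The small TIM chaperones, which pair into rings that shield membrane proteins, held both the highest and the lowest protein-coding transcript of the machinery. Timm8b had 159, 124 and 174 FPKM in vehicle and 175, 156 and 161 FPKM in resveratrol, and its relative Timm8a1, whose human counterpart is the gene of the deafness-dystonia syndrome, had 3.24, 2.95 and 5.23 FPKM and 4.19, 3.54 and 3.10 FPKM. The mean of Timm8b over all libraries was 42.7 times that of Timm8a1. Neither gene separated the groups, at log2 fold changes of 0.12 ± 0.14 and -0.04 ± 0.20 (SE), and 41.0% of the 50-base words of Timm8a1 occur in other genes, so its level is uncertain. Timm10, which forms rings with Timm9, had 23.5, 20.9 and 31.7 FPKM in vehicle and 31.9, 25.6 and 32.9 FPKM in resveratrol. Vehicle 1 and 2 were lowest and the other 4 libraries overlapped, at 0.26 ± 0.16 (SE, limma adjusted p = 0.987). The log2 fold change of Timm10 was 0.43 without vehicle 3 and -0.08 with vehicle 1 and 2 left out. Timm10b, a subunit of TIM22 in human cells, had 13.6, 11.4 and 15.3 FPKM in vehicle and 12.5, 13.1 and 15.9 FPKM in resveratrol, a log2 fold change of 0.04 ± 0.14. Timm9 and Timm13 had means of 22.9 and 26.9 FPKM and overlapping groups.

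Timm22 forms the channel for carrier proteins. It had 6.61, 5.64 and 8.46 FPKM in vehicle and 7.002, 6.70 and 7.86 FPKM in resveratrol, with a log2 fold change of 0.07 ± 0.15 (SE). The resveratrol values lay inside the vehicle range.

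All 6 genes of the TIM23 translocase had a higher mean in resveratrol and 0 had groups that did not overlap, against 56.1% and 6.28% of all genes. With vehicle 1 and 2 left out, the log2 fold change was -0.00077 for Timm17a, -0.27 for Timm17b and 0.017 for Timm50. Without vehicle 3 it was 0.16, 0.35 and 0.33 for the same genes. Timm17a, a structural subunit of the channel, had 71.9, 66.4 and 77.3 FPKM in vehicle and 84.99, 72.5 and 74.8 FPKM in resveratrol, which is 0.11 ± 0.11 (SE) as a log2 fold change. Its relative Timm17b had 5.08, 4.59 and 7.69 FPKM and 5.54, 6.76 and 6.63 FPKM (0.14 ± 0.18). Timm50, the receptor that hands presequences to the channel, had 13.4, 11.1 and 15.3 FPKM in vehicle and 13.8, 15.6 and 17.1 FPKM in resveratrol, with vehicle 3 inside the resveratrol range, at 0.22 ± 0.14. Romo1, a small inner membrane protein, ranged from 22.2 to 46.1 FPKM within vehicle alone, which was the widest gap between vehicle 3 and vehicle 2 of all members (1.04 on the log2 scale). Timm23, the core of the channel, and Timm21 had means of 40.5 and 7.32 FPKM, and 57.5% of the 50-base words of Timm23 occur in other genes, which makes its level uncertain.

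All 4 genes of the import motor and both of the processing peptidase had overlapping groups. Pam16, a regulator of the matrix chaperone, had 41.7, 33.4 and 44.8 FPKM in vehicle and 42.9, 40.7 and 43.6 FPKM in resveratrol, which is 0.09 ± 0.12 (SE) as a log2 fold change. Grpel1, a nucleotide exchange factor of that chaperone, had 13.1, 10.9 and 13.5 FPKM in vehicle and 12.9, 11.9 and 12.6 FPKM in resveratrol, a log2 fold change of 0.0020 ± 0.12. Its relative Grpel2 had 7.49, 7.16 and 8.08 FPKM and 9.01, 7.35 and 7.48 FPKM, at 0.06 ± 0.12. In both genes vehicle 2 was the lowest library. Timm44, which anchors the motor, had a mean of 21.002 FPKM. Pmpca, a subunit of the peptidase that cuts off presequences, had 30.0, 29.4 and 30.9 FPKM in vehicle and 31.7, 31.5 and 28.6 FPKM in resveratrol, at 0.02 ± 0.10. Pmpcb, the catalytic partner, had 34.8, 29.7 and 36.5 FPKM and 33.7, 34.9 and 37.2 FPKM, at 0.07 ± 0.11. The limma adjusted p of these genes was 0.987 or higher.

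Of the 4 genes of the SAM and MICOS group, 1 had groups that did not overlap. Chchd6, a MICOS subunit also called MIC25, had 22.0, 19.7 and 26.4 FPKM in vehicle and 26.7, 26.4 and 32.7 FPKM in resveratrol. The groups touched without overlap, since vehicle 3 and resveratrol 2 were both 26.4 after rounding and resveratrol 2 was the higher. Its log2 fold change was 0.33 ± 0.14 (SE, limma adjusted p = 0.987). It was 0.44 without vehicle 3, 0.23 without resveratrol 3 and 0.11 with vehicle 1 and 2 left out. Chchd3 (MIC19), its paralog in the same complex, had 37.1, 31.6 and 40.6 FPKM in vehicle and 36.6, 36.0 and 38.4 FPKM in resveratrol, at 0.03 ± 0.12. Immt (MIC60), the core of MICOS, had 72.0, 67.1 and 78.8 FPKM and 72.7, 68.5 and 67.8 FPKM, at -0.06 ± 0.10, and Samm50, the barrel insertase, a mean of 36.5 FPKM. In GENCODE M21 Chchd6 lies on chromosome 6 from 89383146 to 89595652 on the minus strand, and it shares 0% of its 50-base words with other genes.

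The remaining twin CX9C proteins, 6 genes, had overlapping groups, with 3 means higher and 3 lower in resveratrol. Chchd2, whose human counterpart is linked to Parkinson disease, had 122, 107 and 151 FPKM in vehicle and 136, 119 and 145 FPKM in resveratrol, which is 0.08 ± 0.14 (SE) as a log2 fold change. Its paralog Chchd10, linked in humans to motor neuron disease, had 73.4, 78.8 and 116 FPKM in vehicle and 83.0, 106 and 125 FPKM in resveratrol (0.24 ± 0.20). The log2 fold change of Chchd10 was 0.44 without vehicle 3 and turned to -0.16 with vehicle 1 and 2 left out. Chchd4, the oxidoreductase that folds these proteins, had a mean of 22.6 FPKM, Chchd1, a subunit of the mitochondrial ribosome, 49.3, Chchd7 23.0 and Chchd5 4.70 FPKM. Their groups overlapped too.

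Ratios of paralogs or partners within a library hardly move when a whole library is rescaled, and 8 such pairs were compared. Chchd3 exceeded Chchd6 by 1.69, 1.60 and 1.54 times in vehicle 1, 2 and 3 and by 1.37, 1.36 and 1.18 times in resveratrol 1, 2 and 3. The log2 ratio averaged 0.67 ± 0.07 over the vehicle mice and 0.37 ± 0.12 over the resveratrol mice (SD, 3 mice each), a difference of -0.30 without overlap (exact permutation test, two-sided, p = 0.1, the smallest that 3 against 3 allows). This difference stayed between -0.34 and -0.23 with each library left out in turn, and it was -0.24 both with length and GC corrected and with vehicle 1 and 2 left out. Transcript GC content is 57.6% for Chchd6 and 48.0% for Chchd3. The other 7 pairs overlapped between groups, with exact p-values between 0.2 and 1. After Benjamini-Hochberg adjustment over the 8 pairs the exact permutation p of Chchd3 over Chchd6 was 0.8.

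Dominance of 1 paralog was kept in every library. Timm17a exceeded Timm17b by between 10.0 and 15.3 times, Timm8b exceeded Timm8a1 by between 33.3 and 51.8 times, and Timm10 exceeded Timm10b by between 1.73 and 2.55 times. Grpel1 over Grpel2 lay between 1.43 and 1.75, Tomm40 over Tomm40l between 1.17 and 1.56, and Chchd2 over Chchd10 between 1.12 and 1.66. The subunits of the peptidase were close to parity, with Pmpca over Pmpcb between 0.768 and 0.990. The group difference in log2 ratio was 0.21 for Timm10 over Timm10b (exact p = 0.2), 0.15 for Timm8b over Timm8a1 (exact p = 0.4) and -0.16 for Chchd2 over Chchd10 (exact p = 0.5). Single libraries moved these differences by more than 1.5 times. Timm10 over Timm10b was 0.10 without resveratrol 1, and Timm8b over Timm8a1 was 0.03 without vehicle 3, 0.08 without resveratrol 3 and 0.27 without vehicle 1. Chchd2 over Chchd10 was -0.05 without vehicle 1, -0.06 without resveratrol 2, -0.08 without resveratrol 3 and -0.33 without resveratrol 1.

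**Figure D5:**
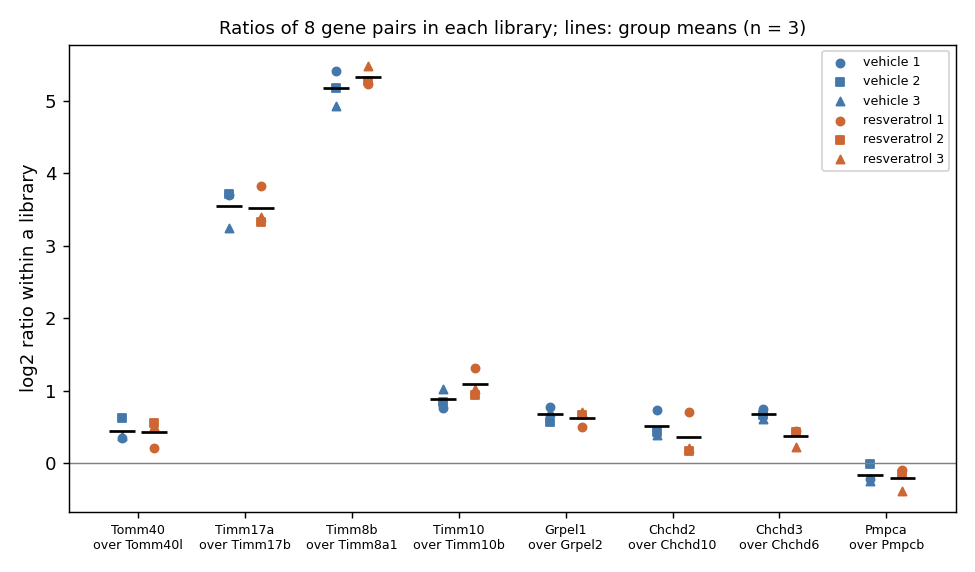
Log2 ratio of 8 gene pairs within each library (y axis; marks are libraries, lines are means of 3 mice, blue for vehicle and orange for resveratrol). The groups are apart in 1 pair, Chchd3 over Chchd6 (0.67 in vehicle and 0.37 in resveratrol), and overlap in the other 7.

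Other genes of mitochondrial import, folding and quality control were measured for 43 genes of a list that the naming rule does not take. Of these 0 passed the adjusted threshold, 0 had an unadjusted limma p under 0.05, 31 had a log2 fold change above 0, and the median was 0.07. Over all genes 2.42% had such a p and 56.1% a fold change above 0. The median of the list was 0.01 without vehicle 2, 0.12 without vehicle 3 and -0.06 with vehicle 1 and 2 left out. Dnajc11, a MICOS-associated cochaperone, had 19.2, 18.6 and 21.9 FPKM in vehicle and 22.4, 22.0 and 24.7 FPKM in resveratrol. It was the single gene of this list whose groups did not overlap (2.33% of the list against 6.28% of all genes), at a log2 fold change of 0.21 ± 0.11 (SE, limma adjusted p = 0.987). Agk, a lipid kinase that is also a TIM22 subunit, differed by 0.16 ± 0.11. The matrix chaperones Hspa9 and Hspd1 had 94.8 ± 11.3 and 82.3 ± 4.24 FPKM in vehicle and 97.3 ± 5.66 and 81.6 ± 6.11 FPKM in resveratrol (SD, n = 3 each).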

How the data were processed

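Right cortex RNA of 6 mice, 3 per group, was depleted of ribosomal RNA and made into stranded libraries, per the labels' protocols. Nothing beyond the group size says how the animals were housed or processed, so p-values measure the spread between these libraries. The submitters' processing notes name STAR, Cufflinks, Cuffdiff and GRCm38. What each did, in which version, with which annotation and whether by strand, is not given in the sources used here. Deposited by the authors were FPKM per library, log2 values per group, a log2 fold change, with its p-value and its q-value, per the file headers. Depth per library is unknown, so no counting interval is given. Of 13582 rows, 2 hold a failed value and were left out, as were rows with a mean under 0.5 FPKM, which left 13574. No value of a member stands at the floor of 0.01.

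The test was limma 3.58.1 (R 4.3.3), fitted to log2(FPKM + 0.5) with a variance trend on intensity, two-sided, without a replicate block, and adjusted by Benjamini-Hochberg over all genes tested at a threshold of 0.05. This scale understates the change of low genes. The script was run on simulated data with independent noise in each gene and planted changes larger than any seen in the members. That run checks the code only, and not how the test behaves when genes of a library shift together. Ratios and shares were compared by exact permutation tests (scipy 1.17.1). The deposited loci overlapped the matching GRCm38 gene in 5 of 39 members. Their build is therefore unclear, although the processing notes name GRCm38, and they were not used. Coordinates, exon overlaps, lengths and GC content (longest protein-coding transcript, in place of the median transcript first taken, which was a fragment for Pmpca) and 50-base words come from GENCODE M21, matched by symbol for 39 of 39 members.

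Values in every library were to be given for the member with the highest level and the one with the smallest p of each role, members whose groups do not overlap, and the pairs compared; Tomm6 was added after its value was seen, and a planned pair with Tomm20l was not analysed here. The members, lists and alternatives were chosen with earlier results of these data known. Alternatives changed the pseudocount (0.1 or 1), the filter (none, or 2 FPKM), the scaling (quantile or median), the variance model (robust, or sample weights by arrayWeights), the replicate block, the threshold (0.1) and the libraries included, and 1 corrected for length and GC by loess. Sample weights estimated gene by gene were added after the default estimate was seen not to converge. The values of 1 gene of the list outside the naming rule are not reported here.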

Additional observations from a re-analysis of the deposited data

How the results depend on the processing

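Direction and calls of the members were unchanged by the pseudocounts, the filters, the robust fit and, in the main fit, the threshold of 0.1. There 0 members passed, the median log2 fold change was 0.08 and 31 of 38 or 32 of 39 were above 0. Median centring gave a median of 0.063 with 30 of 39 above 0 (50.7% of all genes), and 2 members changed sign. Quantile normalization gave 0.059 with 27 of 39 above 0 (51.2% of all genes), and 5 members changed sign. In both, 0 members passed. With each library left out in turn, 0 members passed at 0.05 and the median ran from 0.0050 to 0.18. The count above 0 ran from 20 to 36, and the calls over all genes from 1 to 7. Without vehicle 3 the smallest limma adjusted p of a member was 0.0930 (Tomm6), and 1 member passed at 0.1. In that fit 10 members had an unadjusted limma p under 0.05, and the share over all genes was not computed. With vehicle 1 and 2 left out the median was -0.11, 5 members were above 0 and 3 genes in all passed; the lone vehicle library was assumed to vary like the resveratrol group. Default sample weights gave 15 members and 4927 genes in all, without convergence, and weights by gene, chosen after seeing the data, 5 and 1390; the cause was not tested. The replicate block left 0 members past the threshold, with a median of 0.08, 4 at an unadjusted p under 0.05 and a smallest limma adjusted p of 0.936. The pairing by number is not given by the labels: same-numbered libraries correlated at 0.0383, 0.148 and 0.184, and vehicle 1 correlated best with resveratrol 2 (0.262).

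Signs of single genes turned as follows on the log2 scale. Length and GC correction gave -0.017 for Chchd2, -0.026 for Chchd3, -0.033 for Pam16 and -0.035 for Tomm40. Median centring gave -0.018 for Grpel1, and quantile normalization -0.00041 for Chchd3, -0.017 for Grpel1 and -0.0060 for Pmpca. Default sample weights gave -0.012 for Chchd2, -0.027 for Chchd3, -0.11 for Grpel1, -0.013 for Grpel2, -0.010 for Pam16, -0.026 for Timm10b and 0.097 for Timm8a1, and weights by gene -0.0088 for Chchd3, -0.084 for Grpel1 and 0.093 for Timm8a1. Without vehicle 1 and 2 the values were -0.033 for Agk, -0.16 for Chchd10, -0.19 for Chchd2, -0.13 for Chchd3, -0.11 for Grpel1, -0.029 for Grpel2, -0.079 for Pam16, -0.016 for Pmpca, -0.050 for Pmpcb, -0.079 for Timm10, -0.15 for Timm10b, -0.00077 for Timm17a, -0.27 for Timm17b, -0.22 for Timm22, -0.088 for Timm8b, -0.097 for Tomm40, -0.15 for Tomm40l and -0.030 for Tomm6. With single libraries left out in turn, the lowest and highest values of the genes that turned were -0.033 and 0.22 for Chchd2, -0.070 and 0.11 for Chchd3, -0.092 and 0.058 for Grpel1, -0.028 and 0.11 for Grpel2, -0.11 and 0.0030 for Immt, -0.029 and 0.18 for Pam16, -0.0052 and 0.068 for Pmpca, -0.016 and 0.13 for Pmpcb, -0.063 and 0.14 for Timm10b, -0.056 and 0.22 for Timm22, -0.18 and 0.19 for Timm8a1, -0.024 and 0.22 for Timm8b, and -0.0046 and 0.18 for Tomm40.

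Depth is unknown, so no counting error can be given, and 3 mice per group limit what the exact tests can show. Estimates for Tomm6, Tomm6os, Timm23 and Timm8a1 depend on how shared sequence was assigned. Exons of 17 members overlap exons of a gene on the opposite strand, so their estimates also depend on whether strand was used.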
